A study of Mus musculus with 24 samples.

Results

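The genes described here were 34 mouse genes of the ATF4 program and of amino acid metabolism, out of 45318 genes in the count table. They comprised transcription factors and brakes of the integrated stress response, enzymes that make serine, asparagine, proline and one-carbon units, and plasma membrane amino acid transporters. The genes were chosen by name, with earlier results of these data known, and their rows were found through their Ensembl gene identifiers. Shares of members set beside those of all genes are therefore descriptive. RNA came from Lys-GFP-ER-HoxA9 cells of the C57Bl/6 strain, immature myeloid cells kept in culture by a HoxA9 protein fused to the oestrogen receptor, with a lysozyme-GFP reporter. Growth medium held stem cell factor and 0.5 uM estradiol, which keeps the fusion protein active. Libraries were made in duplicate, named A and B here, at 0, 4, 8, 12, 24, 36, 48, 72, 96 and 120 h after estradiol was taken away, which lets the cells differentiate. A further 4 single libraries came from R07 treatment for 12, 36, 72 and 120 h, R07 being known here by its code alone. The labels carry the same protocol text for every library, so whether estradiol was present during R07 treatment cannot be told from them, and they name no vehicle control for R07. All groups share the fusion and the reporter, and the number of clones behind the line is not given in the sources used here. Nothing in the labels says that duplicates were separate cultures, so p-values measure the spread between these libraries, which may be technical.

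ATF4 is a bZIP transcription factor whose mRNA is translated when eIF2alpha is phosphorylated by kinases that sense amino acid shortage, unfolded protein, haem shortage or double-stranded RNA. It then raises genes that import and make amino acids and charge tRNA, and it also raises factors such as ATF5, TRIB3 and CHAC1, some of which restrain the response. Because ATF4 is set largely by translation, its mRNA level and its activity need not move together. In proliferating blood progenitors the same enzymes supply serine, one-carbon units and asparagine for growth.

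ATF4 binds with C/EBP proteins at a composite element read as TGATGNAA on either strand. Promoters of members that hold it are shown for that reason, and binding was not measured in these data. Of the 34 genes, 29 were matched to a RefSeq promoter of 250 bases before to 50 bases after the start (build GRCm38.p6). Cth, Slc1a5, Slc7a5, Aldh1l2 and Eif4ebp1 had no match. The composite element was found in 10 of the 29 (34.5%), against 4.51% of 27025 genes in the same table. These were Asns, Chac1, Got1, Nupr1, Pck2, Pycr1, Slc1a4, Slc7a11 with 2 matches, Trib3 and Vldlr. The cAMP response element TGACGTCA was found in 0 of 29, against 2.03% of genes, and the E box CACGTG in 3 (Aldh18a1, Cbs and Nupr1), against 8.09%. Both strands were searched, and in Nupr1, which held the composite element and the E box, the 2 did not overlap. A match says only that these letters are present. Stretches follow for the 6 matching genes with the largest mean difference between R07 and withdrawal, 5′ to 3′ on the coding strand, with the element in capitals. They lie at chr11:20332684-20332777 (minus strand), chr11:120643784-120643911 (minus), chr2:152344031-152344106 (minus), chr14:55540103-55540230 (plus), chr7:126625513-126625640 (minus) and chr19:43524640-43524767 (minus). The first base of the element lay 4, 103, 103, 110 and 102 bases before the RefSeq start in Slc1a4, Pycr1, Pck2, Nupr1 and Got1, and 14 bases after it in Trib3.
Slc1a4: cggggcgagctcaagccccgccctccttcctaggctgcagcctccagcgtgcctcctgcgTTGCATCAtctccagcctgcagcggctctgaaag
Pycr1: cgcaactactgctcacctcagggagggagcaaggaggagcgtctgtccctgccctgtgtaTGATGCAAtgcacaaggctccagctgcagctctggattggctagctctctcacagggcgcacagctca
Trib3: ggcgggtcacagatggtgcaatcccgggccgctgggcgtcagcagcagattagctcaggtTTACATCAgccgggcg
Pck2: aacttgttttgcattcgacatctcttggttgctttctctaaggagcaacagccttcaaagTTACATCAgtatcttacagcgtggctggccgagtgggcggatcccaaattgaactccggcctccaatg
Nupr1: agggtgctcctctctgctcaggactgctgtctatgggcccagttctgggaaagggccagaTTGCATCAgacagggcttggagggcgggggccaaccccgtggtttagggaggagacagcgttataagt
Got1: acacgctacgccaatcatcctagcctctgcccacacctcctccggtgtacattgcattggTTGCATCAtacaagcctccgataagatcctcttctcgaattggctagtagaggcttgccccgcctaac

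The libraries held 36.6 M to 49.6 M counts on genes (median 43.7 M). Levels are given as CPM, a gene's counts relative to the size of its library as scaled by TMM, and changes are log2 fold changes from edgeR with their standard errors. Of the 34 members, 30 had enough reads to be tested. Stc2 and Vldlr had 0 reads in every library, Cbs had 58 reads and Cth 6 over all 24 libraries. The summed level of 8 progenitor markers was 9018 and 9299 CPM at 0 h, 12840 and 13360 at 24 h and 2177 to 2549 at 120 h of withdrawal, while 10 mature myeloid markers went from 16.6 and 19.8 CPM to between 23080 and 29110 CPM. In R07 the progenitor sum was 9315, 15460, 12840 and 10450 CPM and the mature sum 23.7, 214, 234 and 68.1 CPM at 12, 36, 72 and 120 h. Ly6g, a neutrophil surface marker, was at 0 in all 4 R07 libraries, and also in every withdrawal library from 0 to 24 h. Markers of eosinophils, mast cells and basophils summed to between 251 and 296 CPM at 0 h, between 2348 and 2769 at 48 h and between 132 and 150.5 at 120 h of withdrawal, and between 375 and 1276 CPM in R07, and lymphoid markers to at most 17.55 CPM. Erythroid markers summed to at most 1.65 CPM and non-haematopoietic markers to at most 6.95 CPM in any library. These sums thus moved with withdrawal time and with R07, beside all results below, and their part in those results was not tested. In such bulk libraries, fewer cells with a transcript and less of it per cell cannot be told apart.

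After estradiol withdrawal 18 of the 30 tested members were lower at 8 h, 12 of those 18 rose again by 24 h, and at 120 h 20 members, most of them biosynthetic enzymes and transporters, were below their starting level and 7 above it. At 4 h, 9 of the 30 tested members were called at an adjusted p under 0.05 (3 higher, 6 lower), against 11.8% of all genes tested (7.23% higher, 4.54% lower), and 5 were called without 0 h library A, 0 h library B or 4 h library A. At 8 h, 22 were called (4 higher, 18 lower), against 21.9% of all genes, with 12.9% higher and 8.98% lower. The median change of the tested members at 8 h was -0.51, beside 0.01 over all genes. At 12 h 16 were called, 1 higher and 15 lower, against 16% of all genes (9.19% higher, 6.81% lower). At 24 h 12 were called, 4 higher and 8 lower, against 27.9% (13.5% and 14.3%), and at 36 h 15, 3 higher and 12 lower, against 40.9% (20.6% and 20.3%). The 24 h count was 6 without 0 h library A, 24 h library A or 24 h library B. At 48 h 22 were called, 1 higher and 21 lower, against 52.6% (25.8% and 26.8%), and at 72 h 25, all lower, against 69.6% (34.9% and 34.7%). At 96 h 28 were called, 5 higher and 23 lower, against 77.4% (38.7% and 38.6%), and at 120 h 27, 7 higher and 20 lower, against 79.8% (39.6% and 40.3%). From 72 h on the share of members called was not far from that of all genes, but their median change was -1.85 at 120 h, beside -0.06 over all genes. With library size as the only scaling the 120 h split was 3 higher and 23 lower in place of 7 and 20, and the median of all genes moved to -0.50. As a group of times, all 30 tested members changed (91.1% of all genes did). These comparisons share the 0 h libraries.

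**Figure D1:**
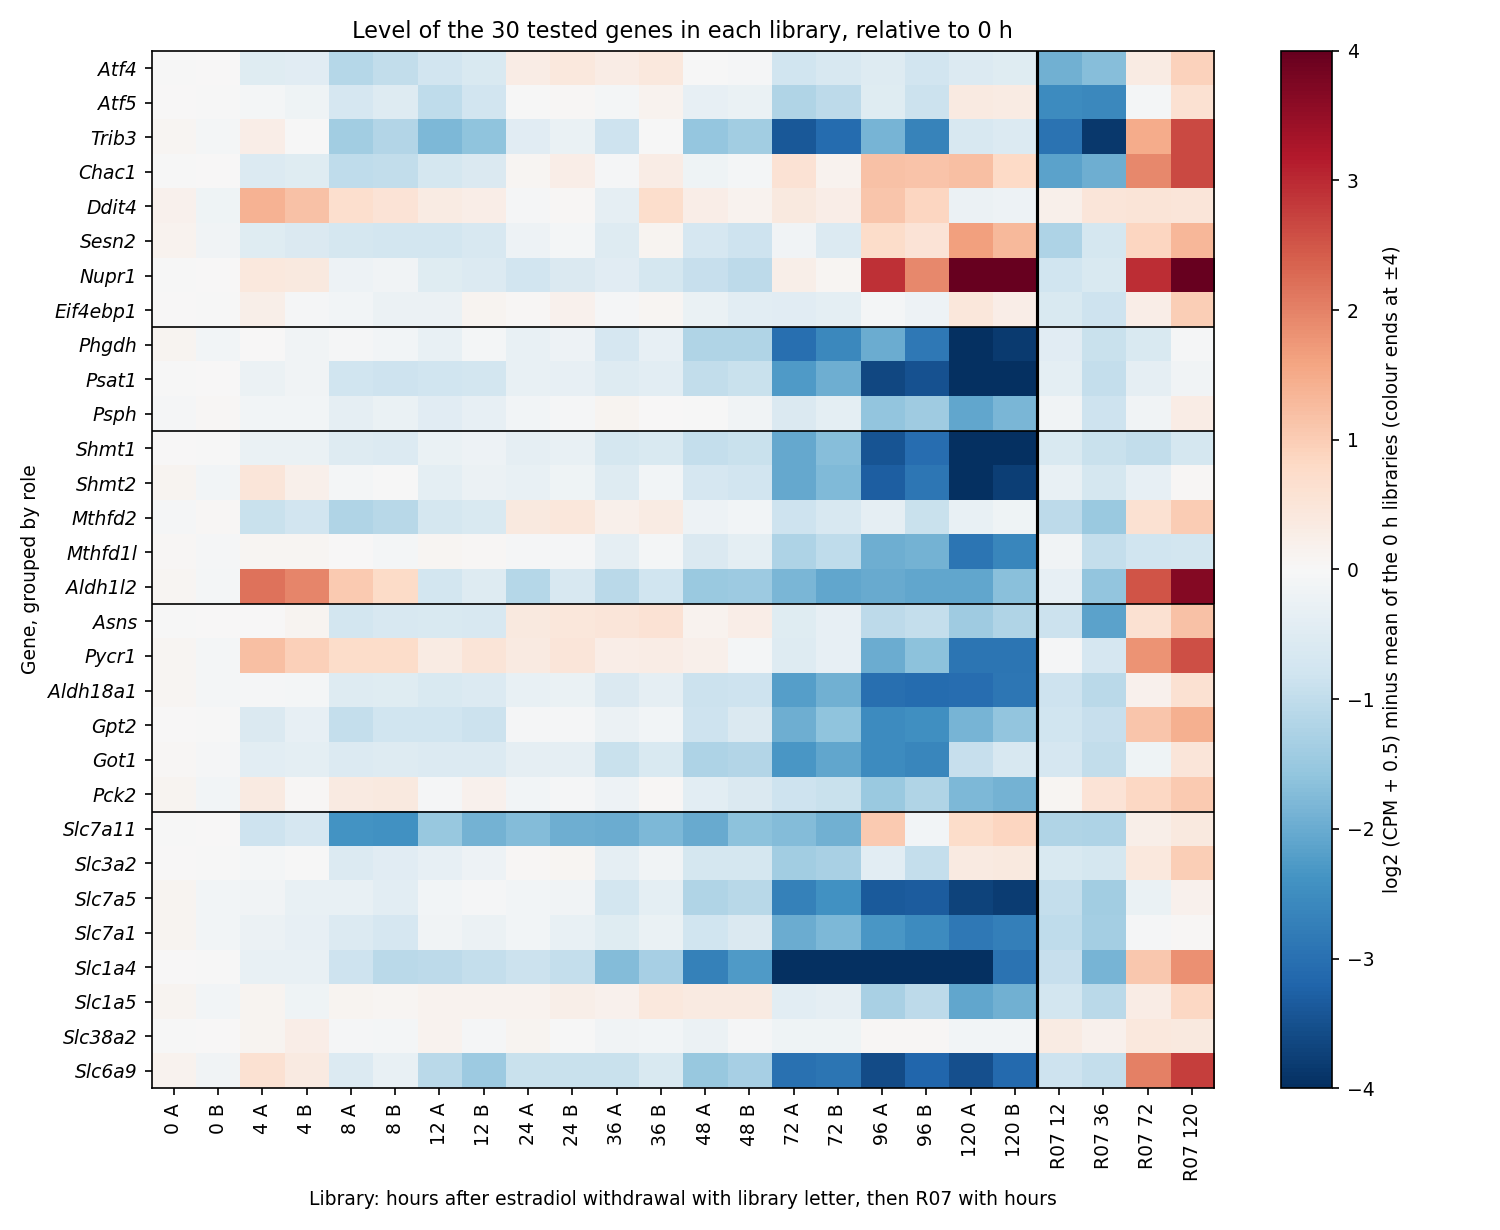
Each row is 1 of the 30 tested genes, grouped by role, and each column 1 library, with the 20 withdrawal libraries left of the line (hours, then library A or B) and the 4 R07 libraries right of it. Colour is log2 (CPM + 0.5) minus the mean of the 0 h libraries: most rows turn blue at 8 h, are paler at 24 h and are dark blue at 120 h, while R07 is blue at 12 and 36 h and mostly red or pale at 72 and 120 h.

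The steps from 4 to 8 h and from 8 to 24 h were also tested directly, in the fit of all withdrawal libraries, which share 1 estimate of the spread. Between 4 and 8 h, 13 members fell and 0 rose (12.4% of all genes called, 7.34% higher and 5.04% lower), with 7 and 8 calls left without 8 h library A and B. Between 8 and 24 h, 17 were called, 13 higher and 4 lower (39.5% of all genes, 18.3% and 21.2%), and with library size alone the split was 11 and 6. Of the tested members, 12 were both lower at 8 h against 0 h and higher at 24 h against 8 h, a pattern held by 4.74% of all genes: Atf4, Atf5, Trib3, Chac1, Sesn2, Psat1, Mthfd2, Asns, Gpt2, Slc7a11, Slc3a2 and Slc7a1. Among these 12, the 8 h drop of Slc3a2 was not called without 8 h library A (-0.475). The return of 3 of the 12 depended on single libraries. The Slc7a11 call was lost without any 1 of 14 libraries, with the highest adjusted p without 24 h library A (0.232). The Slc7a1 call was lost without 24 h library A or 8 h library B (adjusted p = 0.0809 and 0.0683), and the Sesn2 call without 8 h library B or 24 h library B (adjusted p = 0.0543 and 0.0524). Eif4ebp1, higher at 24 h against 8 h but not called lower at 8 h, lost its call without any 1 of 12 libraries. The 4 members that fell between 8 and 24 h were Ddit4, Aldh1l2, Pck2 and Slc6a9. The Ddit4 call was lost without any 1 of the 4 libraries of 8 and 24 h (adjusted p from 0.06 to 0.138), the Pck2 call without 24 h library A (adjusted p = 0.0584), and the Slc6a9 call without any 1 of 12 libraries (adjusted p up to 0.295, without 8 h library B). The count of 17 was 11 without 24 h library A or without 8 h library B.

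Among the regulators, Atf4, the factor that names the program, stood at 339 and 347 CPM at 0 h, 246 and 253 at 4 h, 156 and 175 at 8 h and 422.5 and 458 at 24 h. Every library at 8 h was below, and every library at 24 h above, those at 0 h. The change was -1.06 ± 0.10 at 8 h (adjusted p = 2.29e-07) and 1.42 ± 0.10 from 8 to 24 h (adjusted p = 9.05e-10). The 24 h level was 0.35 ± 0.10 above 0 h (adjusted p = 0.00971), but it missed the threshold at an adjusted p of 0.0761 when 0 h library A was left out and of 0.0961 when 24 h library B was. By 120 h Atf4 was at 236 and 243 CPM, 0.54 ± 0.10 below 0 h (adjusted p = 4.64e-05).

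Trib3, a pseudokinase that binds ATF4 and restrains it, fell further. Its libraries read 37.9 and 34.2 CPM at 0 h, 13.6 and 15.6 at 8 h, 26.0 and 29.6 at 24 h, 2.97 and 3.81 at 72 h and 22.8 and 24.6 at 120 h. The 8 h, 72 h and 120 h pairs all lay below the 0 h pair, and the change at 72 h was -3.42 ± 0.25 (adjusted p = 2.00e-10). Between 48 and 120 h Trib3 rose again, by 0.89 ± 0.22 (adjusted p = 0.00129). Chac1, a glutathione-cleaving enzyme and a sharp marker of ATF4 output, was at 2.25 and 2.27 CPM at 0 h, 0.871 and 0.892 at 8 h, 2.39 and 2.80 at 24 h and 5.90 and 4.24 at 120 h. Its 8 h pair was below and its 120 h pair above the 0 h pair (-1.37 ± 0.24, adjusted p = 3.32e-04, and 1.15 ± 0.20, adjusted p = 2.61e-05).

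Sesn2, which senses leucine and restrains mTORC1, and Nupr1, a small stress-induced chromatin protein, had their highest levels at the end of the course. Sesn2 read 25.9 and 21.4 CPM at 0 h, 14.4 and 13.1 at 48 h and 73.8 and 58.7 at 120 h, a rise of 1.47 ± 0.17 over 0 h (adjusted p = 8.25e-08). Nupr1 was low for most of the course, at 0.632 and 0.674 CPM at 0 h and 0.106 and 0.0587 at 48 h, then reached 8.21 and 3.88 CPM at 96 h and 20.9 and 22.6 at 120 h. Both late pairs were clear of all earlier ones, and the 120 h change was 5.03 ± 0.28 (adjusted p = 8.63e-13). Atf5, Eif4ebp1 (the translation repressor 4E-BP1), Slc7a11 and Slc3a2 were also called higher at 120 h, by 0.33 to 0.79, but with library size alone Atf5, Eif4ebp1 and Slc3a2 came out at -0.11, -0.11 and -0.08 and Slc7a11 at 0.35 without a call. Chac1, Sesn2 and Nupr1 kept their calls under that scaling. The call of Atf5 was also lost without 0 h library B (adjusted p = 0.065) and that of Eif4ebp1 without 0 h library A, 0 h library B or 120 h library A (adjusted p = 0.0503, 0.0696 and 0.119).

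Ddit4, an mTORC1 inhibitor induced by many stresses, moved against the others early. It was at 6.07 and 4.68 CPM at 0 h, 14.7 and 12.6 at 4 h, 5.105 and 5.54 at 24 h and 12.0 and 10.05 at 96 h. The 4 h and 96 h pairs lay above the 0 h pair and the 24 h pair overlapped it, with a 4 h change of 1.35 ± 0.23 (adjusted p = 3.11e-04). Aldh1l2, the mitochondrial formyltetrahydrofolate dehydrogenase, and Pycr1, which makes the last step of proline synthesis, also had their highest withdrawal level at 4 h. Aldh1l2 read 1.72 and 1.53 CPM at 0 h, 9.11 and 7.68 at 4 h and 0.254 and 0.274 at 48 h, with a 4 h change of 2.37 ± 0.28 (adjusted p = 6.67e-06). Pycr1 read 10.65 and 9.355 CPM at 0 h, 23.5 and 19.7 at 4 h and 0.886 and 0.897 at 120 h, with changes of 1.11 ± 0.13 at 4 h (adjusted p = 6.67e-06) and -3.50 ± 0.19 at 120 h (adjusted p = 5.52e-13). These 3 were the members called higher at 4 h, against 7.23% of all genes.

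**Figure D2:**
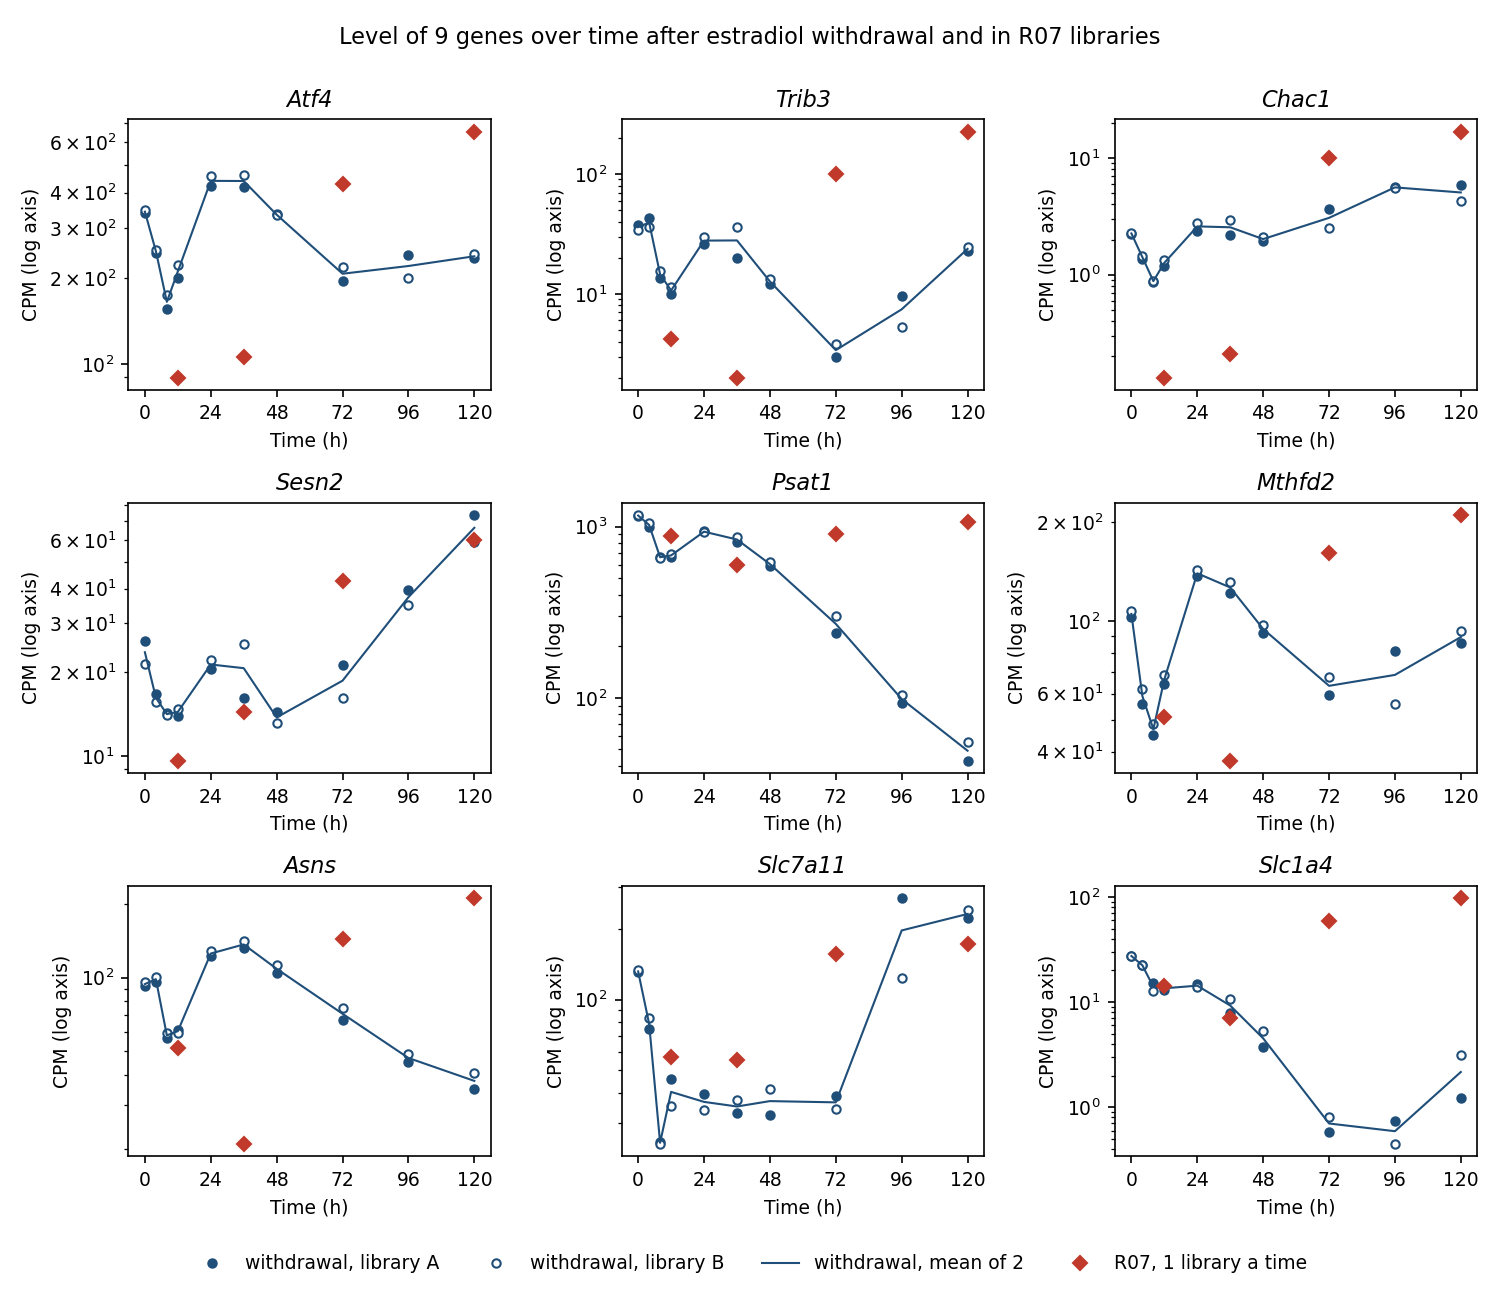
CPM on a log axis against hours for 9 members, with filled and open circles for withdrawal libraries A and B, a line through their mean and diamonds for the single R07 libraries. Atf4, Trib3, Chac1, Mthfd2 and Asns dip at 8 h and return at 24 h, Psat1 and Slc1a4 decline to the end or to 96 h, and the R07 diamonds lie below the withdrawal points at 36 h in 8 panels (Slc7a11 excepted) and above them at 72 h in all 9.

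The serine pathway turns a glycolytic intermediate into serine through Phgdh, Psat1 and Psph, and all 3 ended far below the start. Psat1 had the highest level per kb of exon of any member at 0 h (a mean of 272.5 CPM per kb). Psat1 was at 1147 and 1171 CPM at 0 h, 664 and 659 at 8 h, 938 and 929 at 24 h and 42.9 and 55.2 at 120 h. It was below the 0 h pair at every later time shown and fell by 4.59 on the log2 scale at 120 h (SE 0.13, adjusted p = 3.45e-17). Phgdh, at 282 and 243 CPM at 0 h, was not called before 36 h and was at 14.2 and 18.2 CPM at 120 h (-4.05 ± 0.22, adjusted p = 7.38e-13). Psph, at 42.2 and 44.5 CPM at 0 h, was at 9.91 and 11.9 CPM at 120 h (-2.02 ± 0.11, adjusted p = 6.36e-13).

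Of the 5 one-carbon enzymes, 4 were lower at 120 h. Shmt1, the cytosolic serine hydroxymethyltransferase, was at 180.2 and 175 CPM at 0 h, 42.3 and 54.3 at 72 h and 3.63 and 4.83 at 120 h (-5.42 ± 0.16, adjusted p = 4.27e-17). Shmt2, its mitochondrial counterpart, was at 519 and 445 CPM at 0 h and 29.3 and 34.7 at 120 h (-3.94 ± 0.16, adjusted p = 6.78e-15). Mthfd1l, which releases formate from mitochondria, fell by 2.81 at 120 h (SE 0.12, adjusted p = 7.86e-15). Aldh1l2, already described, was 4.36 ± 0.59 below 0 h at 120 h (adjusted p = 8.95e-07), from 0 and 5 reads. Mthfd2, the mitochondrial methylenetetrahydrofolate dehydrogenase, did not follow them. It read 102.5 and 107 CPM at 0 h, 44.9 and 48.7 at 8 h, 137 and 143 at 24 h and 85.4 and 93.2 at 120 h, so that its course had the dip and return of Atf4 and its 120 h change was not called (-0.255 ± 0.125, adjusted p = 0.0672).

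Asns, asparagine synthetase, was at 92.2 and 95.9 CPM at 0 h, 56.5 and 59.6 at 8 h, 133 and 140.5 at 36 h and 35.0 and 40.6 at 120 h. The 8 h pair was below, the 36 h pair above and the 120 h pair again below the 0 h pair (-0.71 ± 0.09, 0.53 ± 0.09 and -1.34 ± 0.09, adjusted p = 1.20e-05, 8.16e-05 and 4.21e-11). Aldh18a1, which starts proline synthesis, fell by 2.996 at 120 h (SE 0.11) and the transaminase Gpt2 by 1.82 (SE 0.14). Got1, the cytosolic aspartate transaminase, reached its lowest level at 96 h (28.9 and 27.1 CPM, from 174 and 163 CPM at 0 h) and was back at 88.0 and 107 CPM at 120 h. Its rise from 48 to 120 h was 0.42 ± 0.11 (adjusted p = 0.00175), a call lost with library size alone (0.025). Pck2, mitochondrial PEP carboxykinase, was at 148 and 125 CPM at 0 h and 38.5 and 36.3 at 120 h (-1.88 ± 0.13, adjusted p = 1.79e-11).

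The transporters did not move together. Slc7a11, the cystine carrier of system xc-, had the largest drop of any member at 8 h, from 130.3 and 133 CPM to 24.9 and 24.35 CPM (-2.43 ± 0.23, adjusted p = 3.23e-07). It stayed between 32.3 and 45.8 CPM from 12 to 72 h and was at 222 and 240.1 CPM at 120 h. Its 96 h libraries were far apart, at 269.9 and 123 CPM, and the 96 h change of 0.56 turned to -0.12 without library A and was not called without either 0 h library. Slc7a5, the large neutral amino acid exchanger, went from 365 and 316 CPM to 25.4 and 24.2 CPM at 120 h (-3.80 ± 0.13, adjusted p = 3.10e-16), while its heavy chain Slc3a2, shared with Slc7a11, was at 216 and 212 CPM at 0 h and 277 and 283 at 120 h. Slc1a4, a carrier of alanine, serine and cysteine, read 27.6 and 27.2 CPM at 0 h, 0.584 and 0.815 at 72 h and 1.22 and 3.105 at 120 h (-5.30 ± 0.29 at 72 h, adjusted p = 1.72e-12). Slc6a9, the glycine transporter GlyT1, read 8.47 and 6.99 CPM at 0 h and 0.221 and 0.449 at 120 h (-4.58 ± 0.29, adjusted p = 7.56e-12). The arginine carrier Slc7a1 and the glutamine carrier Slc1a5 fell by 2.82 and 2.04 at 120 h. Slc38a2, a neutral amino acid carrier, stayed between 309 and 438 CPM in all 20 libraries and was called at no time against 0 h.

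The 20 members called lower at 72, 96 and 120 h alike were Atf4, Trib3, all 3 serine enzymes, Shmt1, Shmt2, Mthfd1l, Aldh1l2, all 6 asparagine, proline and transamination enzymes, Slc7a5, Slc7a1, Slc1a4, Slc1a5 and Slc6a9. Of all genes, 34.7%, 38.6% and 40.3% were lower at 72, 96 and 120 h taken singly. The share lower at all 3 times is not given here and can be no more than 34.7%. For Trib3 the 120 h call was lost without 0 h library A or 120 h library A (adjusted p = 0.0592 and 0.0868), and for Pycr1 the 72 h call without 0 h library A or 72 h library A (adjusted p = 0.0687 and 0.0784). Between 48 and 120 h, 26 members were called, 17 lower and 9 higher (74.8% of all genes, 38% lower and 36.7% higher). The 9 were Atf5, Trib3, Chac1, Sesn2, Nupr1, Eif4ebp1, Got1, Slc7a11 and Slc3a2, that is 6 of the 8 tested regulators, 2 of the 8 transporters and, among the enzymes, Got1 alone. With library size alone Atf5 and Got1 were not called. Members of the serine group had the lowest group median at 120 h, -4.05, and the regulators the highest, 0.34.

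R07 gave a course of its own, with members below withdrawal early and above it late. The single R07 library was below both withdrawal libraries of the same hour in 20 of 30 members at 12 h and above both in 8 (38.8% and 41.2% of all genes), and below in 25 and above in 3 at 36 h (45% and 44.7%). It was above both in all 30 at 72 h (45.2% of all genes) and in 27 at 120 h (50.3%). The median ratio of R07 to the withdrawal mean was 0.835, 0.626, 3.30 and 6.40 at 12, 36, 72 and 120 h. In 17 members the R07 library was below both at 12 and 36 h and above both at 72 and 120 h, against 8.43% of all genes. These were Atf4, Atf5, Trib3, Chac1, Eif4ebp1, Phgdh, Shmt1, Mthfd2, Mthfd1l, Asns, Pycr1, Aldh18a1, Got1, Slc3a2, Slc7a5, Slc7a1 and Slc1a5. Withdrawal levels themselves fell late, so R07 levels are also set against 0 h below.

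**Figure D3:**
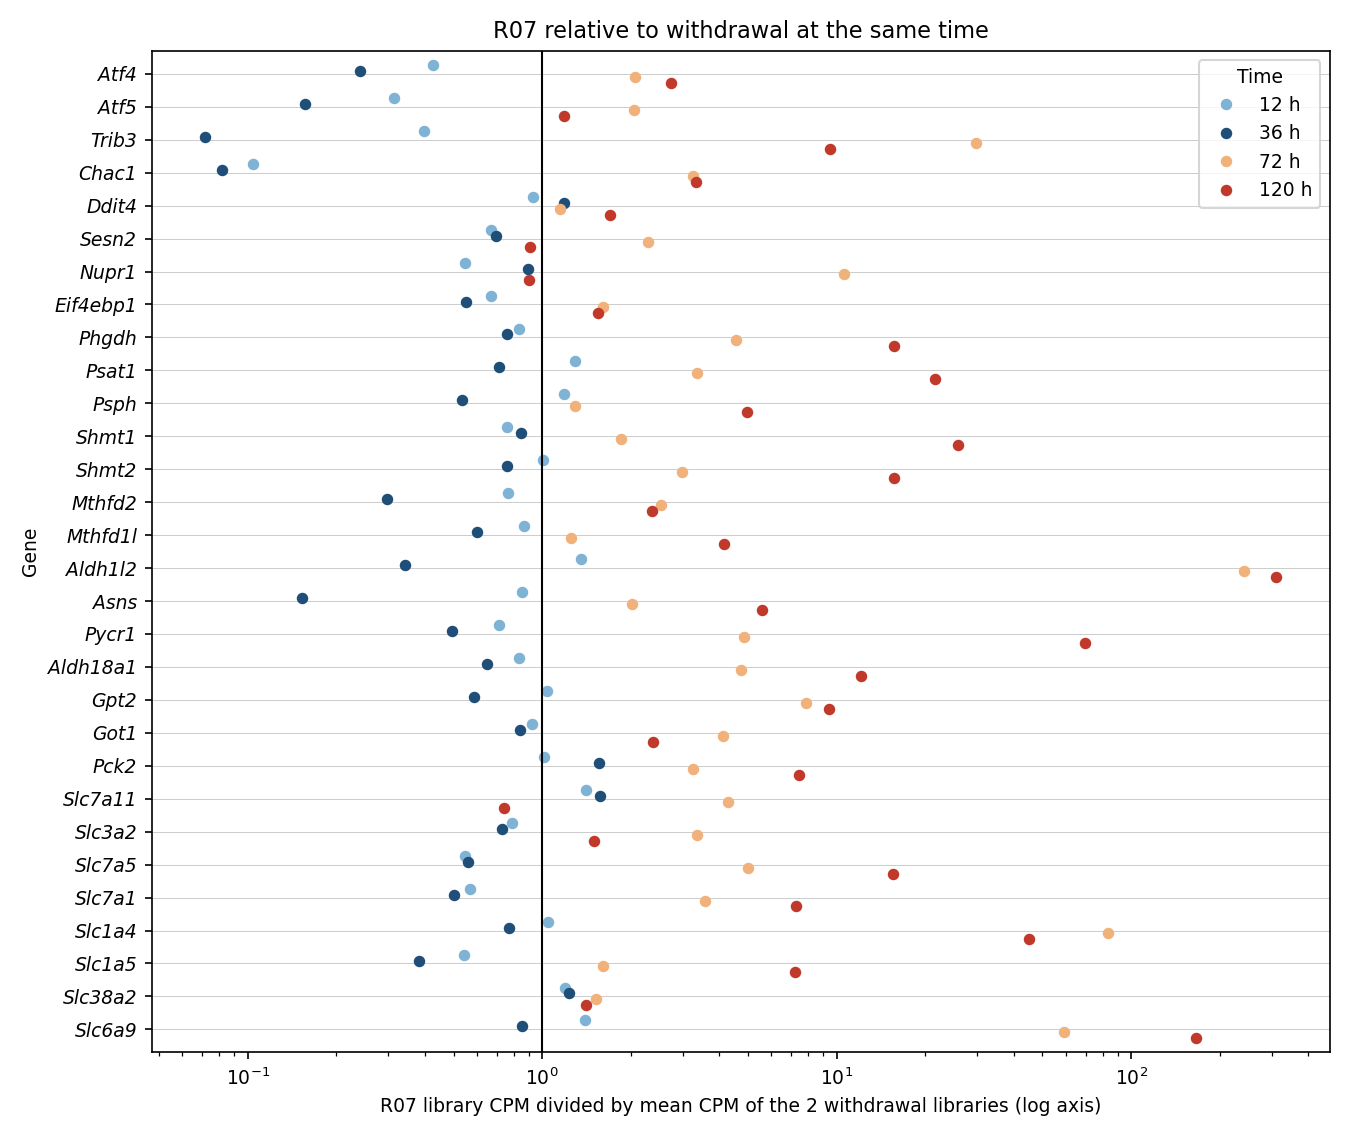
For each of the 30 tested genes, the level in the single R07 library divided by the mean of the withdrawal pair at the same hour, on a log axis, with 1 point for each of 4 times. Points of 12 and 36 h lie mostly left of 1 and those of 72 and 120 h mostly right of it; at 120 h only Slc7a11, Sesn2 and Nupr1 lie left of 1.

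A test over all 4 times called 2 members, Pck2 (1.45 ± 0.38, adjusted p = 0.0315) and Slc38a2 (0.42 ± 0.10, adjusted p = 0.0251), both higher, against 17% of all genes (10.5% higher, 6.52% lower). DESeq2 called 12 members. Shares of all genes called by DESeq2, and by the fits below with 1 library left out, are not given here. Counts from those fits are read only as dependence on the fit. Both edgeR calls were lost without the R07 72 h library (adjusted p = 0.123 and 0.0976), 36 h library A, or either library of 72 or 120 h, that of Slc38a2 also without 12 h or 36 h library B, and 10 members were called without the R07 12 h or 36 h library. The test that asks whether the R07 difference changes over the 4 times called 28 of 30 members, against 73.6% of all genes, Ddit4 and Slc38a2 being the others. In it the single R07 libraries are assumed to vary like the withdrawal pairs. After this was seen, early and late times were fitted apart. At 12 and 36 h, 9 members were lower and 1 (Slc7a11) higher, against 17.1% of all genes called (6.69% lower, 10.4% higher). At 72 and 120 h, 22 were higher and 0 lower, against 37.4% (19.7% higher, 17.7% lower).

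Early R07 values were low in several regulators and in some enzymes and transporters. Changes and adjusted p in this paragraph come from the edgeR fit of 12 and 36 h alone, added after the values were seen. That split was chosen from these data, so its p-values are descriptive. The test over all 4 times did not call Chac1, Trib3, Atf4 or Atf5. Ddit4 and Nupr1 lay below both withdrawal libraries at 12 h and between them at 36 h, and neither was called over these times. Chac1 was at 0.132 CPM at 12 h and 0.209 CPM at 36 h in R07, from 7 and 10 reads. Withdrawal libraries read 1.18 and 1.35 CPM and 2.19 and 2.92 CPM (R07 difference -3.45 ± 0.34, adjusted p = 0.00435). Trib3 was at 4.23 and 2.00 CPM in R07, against 9.99 and 11.3 CPM and 20.02 and 35.8 CPM (-2.40 ± 0.62, adjusted p = 0.0447). Atf4 was at 89.8 and 106 CPM, against 200.4 and 223 CPM and 417.5 and 461 CPM (-1.64 ± 0.21, adjusted p = 0.00863), and Atf5 at 16.3 and 15.5 CPM, against 47.4 to 107 CPM (-2.16 ± 0.27, adjusted p = 0.00781). For Atf4, Atf5, Chac1 and Eif4ebp1 the early R07 libraries were below every one of the 20 withdrawal libraries, 0 h and 8 h included. In all, 5 members were below all 20 at 12 h and 7 at 36 h, against 7.51% and 7.13% of all genes. Asns was close to withdrawal at 12 h (51.6 CPM, against 61.3 and 59.6 CPM) and 6.54-fold below it at 36 h (20.9 CPM, against 133 and 140.5 CPM).

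Late R07 values went past the starting level in many members. At 72 h, 20 of 30 R07 values were above both 0 h libraries and 9 below both (47.9% and 39.8% of all genes), and at 120 h, 24 were above and 3 below (47.3% and 39.9%). At 120 h, 20 members were above every one of the 20 withdrawal libraries, against 13.9% of all genes, and at 72 h 13 were, against 10.9%. Trib3 read 101 CPM at 72 h and 226 CPM at 120 h, 6.27-fold its 0 h mean and 113-fold its own R07 level at 36 h. Chac1 read 9.96 and 16.85 CPM, Atf4 429 and 655 CPM, and Asns 144 and 211.5 CPM. All 4 of these were above every withdrawal library at 120 h. Slc6a9 read 33.0 and 55.5 CPM, 7.18-fold its 0 h mean at 120 h, and Slc1a4 58.5 and 97.55 CPM, 3.56-fold. Aldh1l2 read 11.8 and 26.8 CPM where the withdrawal pairs held 4 reads at 72 h and 5 at 120 h. Pycr1 read 35.8 and 62.0 CPM, 6.20-fold its 0 h mean.

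Several serine and one-carbon enzymes did not pass their 0 h pair. At 72 and 120 h of R07, Psat1 was at 906 and 1059 CPM, Phgdh at 173 and 253 CPM and Shmt2 at 382.5 and 501 CPM. Shmt1 (89.3 and 109.5 CPM) and Mthfd1l (119.5 and 125.5 CPM) remained below both 0 h libraries at all 4 times. Their gap to withdrawal at 120 h was wide all the same, 25.9-fold for Shmt1, 21.6-fold for Psat1, 15.6-fold for Phgdh and 15.65-fold for Shmt2. Mthfd2, in contrast, was at 160.4 and 210.4 CPM, above every withdrawal library. Nupr1 and Sesn2, which rose late in withdrawal, were at 19.65 and 60.03 CPM at 120 h of R07, 1.11-fold and 1.10-fold below the withdrawal mean.

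Against the 2 libraries at 0 h, with the 4 R07 times as 1 group, edgeR called 0 of 30 members and 0 of 13703 genes (0%). At an unadjusted p under 0.05 it gave 3 members, Shmt1, Mthfd1l and Pck2, and 2868 genes. DESeq2 called Shmt1 (-0.84 ± 0.20, adjusted p = 9.99e-04) among 1324 genes. Without the R07 12 h library edgeR called all 3, Shmt1 at -0.89, Mthfd1l at -0.86 and Pck2 at 0.78 (adjusted p = 0.0151, 0.0144 and 0.0350). The number of all genes called in that fit is not given here, so these 3 calls are not set against a background. The R07 times lie on both sides of 0 h for most members, and that spread enters this test.

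Cytosolic aminoacyl-tRNA synthetases, which charge tRNA with amino acids and include many ATF4 targets, had a like course. Of 20 tested, 13 were lower at 8 h and 0 higher (median -0.36), against 8.98% of all genes lower. Between 8 and 24 h 15 were higher and 1 lower (median 0.34), against 18.3% higher, and at 120 h 19 were lower and 0 higher (median -1.44), against 40.3% lower. Cars and Yars had the lowest 8 h changes (-0.89 ± 0.09 and -0.76 ± 0.10), and Vars and Eprs the lowest at 120 h (-2.32 ± 0.14 and -2.13 ± 0.10). In R07, 18 of 20 were below both withdrawal libraries at 12 h, 20 at 36 h, and 18 and 20 were above both at 72 and 120 h, against 38.8%, 45%, 45.2% and 50.3% of all genes. Against both 0 h libraries, all 20 were below at 12 and 36 h, 16 below and 3 above at 72 h, and 12 above and 6 below at 120 h. Wars, tryptophanyl-tRNA synthetase, read 96.2, 83.8, 168 and 276 CPM in R07, beside a 0 h mean of 155 CPM.

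**Figure D4:**
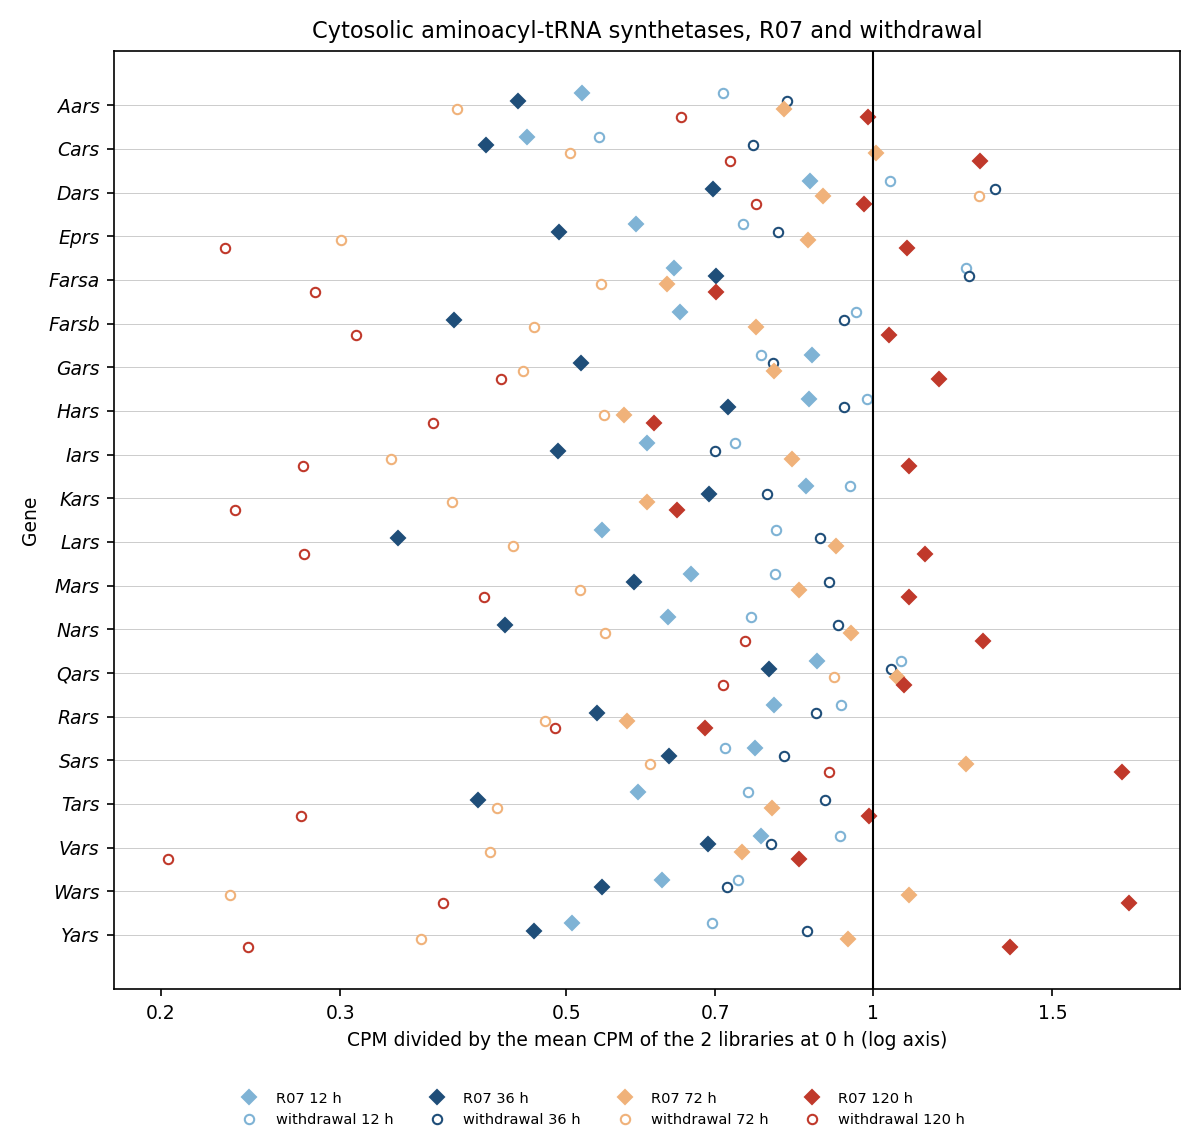
Level of 20 cytosolic aminoacyl-tRNA synthetases divided by the mean of the 2 libraries at 0 h, on a log axis, with diamonds for single R07 libraries and open circles for the mean of the 2 withdrawal libraries at the same hour. The dark blue diamonds of 36 h all lie left of 1, and 12 of the 20 red diamonds of 120 h lie above both 0 h libraries, while the open red circles of 120 h withdrawal lie left of 1 in all 20 rows.

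Genes around ATF4 moved in several ways, and their counts stand beside 11.8% of all genes called at 4 h and 79.8% at 120 h (39.6% higher, 40.3% lower). Of 6 bZIP partners, 1 was called at 4 h, Atf3, higher by 5.11 ± 0.66 (adjusted p = 1.79e-05), from a mean of 0.0331 CPM at 0 h. At 120 h 5 were higher, among them Cebpb (3.22 ± 0.21), and Cebpg was lower (-0.615 ± 0.118). Of 8 eIF2alpha kinases, phosphatase and initiation factor subunits, all were called at 120 h, 5 higher and 3 lower. The kinase genes Eif2ak2 and Eif2ak3 were higher (2.37 ± 0.16 and 1.75 ± 0.11). So was the kinase gene Eif2ak1, with means of 117 CPM at 0 h and 170 CPM at 120 h. The kinase gene Eif2ak4 was lower, with means of 34.1 CPM at 0 h and 19.25 CPM at 120 h. The others lower were Eif2s1, eIF2alpha itself (-1.61 ± 0.12), and Eif2b5 (-1.28 ± 0.09). Of 6 glutathione genes, 3 were called at 4 h, with Gclm and Gclc, the subunits of the rate-limiting ligase, higher (1.21 ± 0.10 and 0.68 ± 0.11) and Gsr lower (-0.41 ± 0.11).

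The other metabolic lists held members of both directions at 120 h, where 79.8% of all genes were called (39.6% higher, 40.3% lower). Of 11 further folate and methionine cycle enzymes tested, 8 were lower and 3 higher at 120 h, with Ahcy at -4.72 ± 0.13 and Tyms, thymidylate synthase, at -4.39 ± 0.12. Of 11 further amino acid enzymes, 7 were lower and 3 higher, with the branched-chain transaminase Bcat1 at -9.35 ± 0.29 and Prodh, which degrades proline, at -2.98 ± 0.20. The Bcat1 value rests on a low mean of 0.131 CPM at 120 h, from 81.1 CPM at 0 h. Of 9 further transporters tested, 5 were higher and 3 lower, with Slc7a8 at 4.71 ± 0.16 and Slc43a2 at 4.12 ± 0.15, both carriers of large neutral amino acids like Slc7a5, which fell. Of 7 nutrient-sensing genes tested, 6 were higher and 1 lower, the lower one being Sesn3 (-2.55 ± 0.20). The higher ones included Castor2 (3.97 ± 0.54) and the arginine sensor gene Castor1 (3.13 ± 0.28), from low means of 0.19 and 0.305 CPM at 0 h. Over the 8 lists, 10 of 78 genes tested were called in R07 against withdrawal over the 4 times, 3 higher and 7 lower, against 17% of all genes. The higher were Slc7a7, Gclc and Sesn3 and the lower Slc7a8, Slc36a1, Ppp1r15b, Arg2, Gsr, Cebpb and Jdp2. The differences with the lowest adjusted p were those of Gsr (-1.97 ± 0.27, adjusted p = 0.00261), Sesn3 (1.73 ± 0.25, adjusted p = 0.00307) and Slc7a8 (-2.41 ± 0.47, adjusted p = 0.0101).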

How the data were processed

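RNA of 20 withdrawal libraries and 4 R07 libraries was sequenced from a stranded, oligo-dT based kit, per the labels' protocols. The authors deposited whole-number read counts per Ensembl gene. STAR 2.4.2a, Picard and the mm10 build are named in the submitters' processing notes, and the counting program, annotation and strand setting are not given in the sources used here. Reads outside single genes (multimapping, no feature, ambiguous, unmapped) made up 14.3% to 17.4% of each library and were left out of library sizes. The table holds multimapping and ambiguous reads in rows of their own, so reads shared between near-identical or overlapping genes are missing from gene counts. Depth was 36.6 M to 49.6 M gene counts per library.

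Counts were tested with edgeR 4.0.16 (quasi-likelihood, TMM scaling, its expression filter) in R 4.3.3, with limma 3.58.1 loaded, and with DESeq2 1.42.0 as an alternative. P-values were adjusted by Benjamini-Hochberg over all genes tested and called under 0.05. Withdrawal times were compared in 1 fit of the 20 withdrawal libraries. R07 was compared with withdrawal at 12, 36, 72 and 120 h with time as a covariate, and with 0 h. The scripts were tested on simulated data. Duplicates carry a letter in the table and a number in the titles, so columns were matched to groups only. All members are described by role, with values for those called most often or with the largest changes, and at most 4 genes per other list, the 2 highest and 2 lowest called. The kinase genes Eif2ak1 and Eif2ak4 are named besides. Members and lists were chosen with earlier results of these data known. Other scalings, no filter, each library left out, a letter block and only the times compared were tried.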

Additional observations from a re-analysis of the deposited data

Results flagged for a closer look

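The difference between R07 and withdrawal was not the same at 12, 36, 72 and 120 h in 28 of the 30 tested members, by edgeR's test of that change over time, which 73.6% of all genes also passed. Each time has 1 R07 library, assumed to vary like the withdrawal pairs. Among the regulators, the adjusted p was 2.73e-13 for Atf4, 8.91e-13 for Atf5, 9.32e-15 for Trib3, 2.71e-10 for Chac1, 1.80e-05 for Sesn2, 1.47e-09 for Nupr1 and 3.41e-07 for Eif4ebp1. Among the serine enzymes, the adjusted p was 9.30e-13 for Phgdh, 8.80e-14 for Psat1 and 8.10e-11 for Psph. Among the one-carbon enzymes, the adjusted p was 2.23e-14 for Shmt1, 4.32e-13 for Shmt2, 3.54e-12 for Mthfd2, 3.39e-10 for Mthfd1l and 1.46e-11 for Aldh1l2. Among the asparagine, proline and transamination enzymes, the adjusted p was 1.09e-14 for Asns, 1.25e-15 for Pycr1, 6.54e-14 for Aldh18a1, 6.89e-13 for Gpt2, 2.68e-09 for Got1 and 4.70e-11 for Pck2. Among the transporters, the adjusted p was 4.59e-09 for Slc7a11, 7.69e-10 for Slc3a2, 9.16e-15 for Slc7a5, 5.94e-14 for Slc7a1, 1.47e-13 for Slc1a4, 3.67e-14 for Slc1a5 and 1.26e-14 for Slc6a9.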

How the results depend on the processing

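Counts of called members rest on 2 libraries a time, and with each library left out in turn they ranged from 5 to 10 at 4 h, 16 to 22 at 8 h, 13 to 18 at 12 h, 6 to 13 at 24 h, 11 to 17 at 36 h, 19 to 23 at 48 h, 24 to 27 at 72 h, 27 to 28 at 96 h and 25 to 28 at 120 h. They ranged from 7 to 18 between 4 and 8 h, 11 to 19 between 8 and 24 h, 14 to 23 between 24 and 48 h, 25 to 27 between 48 and 120 h, 29 to 30 for any time, 0 to 10 for R07 against withdrawal, 26 to 29 for its change with time and 0 to 3 for R07 against 0 h. Fitting only the 2 times compared gave 27 calls between 8 and 24 h. R07 against withdrawal had 4 calls with library size alone, 1 with no filter, 12 with DESeq2, 10 with only 12 and 36 h and 22 with only 72 and 120 h, and R07 against 0 h had 1 with DESeq2. For R07 against withdrawal, shares of all genes with library size alone, no filter or DESeq2 are not given here. Changes reversed for Slc7a11 at 96 h (-0.12 without library A, 1.02 without library B) and, with library size alone at 120 h, for Atf5 (-0.11), Eif4ebp1 (-0.11) and Slc3a2 (-0.08). With only 12 and 36 h, fits added after seeing the data, 24 R07 differences changed sign, of which 8 were called: Atf4 (-1.64), Trib3 (-2.40), Chac1 (-3.45), Eif4ebp1 (-0.73), Pycr1 (-0.76), Slc7a5 (-0.87), Slc7a1 (-0.92) and Slc1a5 (-1.15). The causes were not tested. Same-letter deviations correlated at -0.16 to 0.21 over 45 pairs of times, 7 of them over 0.1. Pairing by letter was thus not evident, but such correlations cannot exclude it. With the letter as a replicate block, R07 against withdrawal had 0 calls and 5 of 283 called gene and comparison pairs lost their call. Depth of 36.6 M counts or more left Chac1, Nupr1, Aldh1l2, Pycr1, Slc1a4 and Slc6a9 at under 1 CPM in some libraries, where counting error is widest, and the large late folds of the last 4 rest on such libraries.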
